A study of Mus musculus with 12 samples.

Results

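The proteasome is the protease that degrades ubiquitin-tagged proteins. Its 20S core is a barrel of alpha rings (Psma genes) around beta rings (Psmb genes), of which Psmb5, Psmb6 and Psmb7 encode the catalytic subunits. The 19S cap (Psmc ATPases and Psmd non-ATPases) binds, unfolds and feeds in the substrate, and other activators (Psme1 to Psme4) can take its place. Spermatocytes are known for germ-cell variants of the complex, above all Psma8, the testis paralogue of Psma7, and the activator PA200, the product of Psme4.

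The 48 genes described here are all rows of the expression table whose symbol begins with Psma to Psmg and a digit, without Psmc3ip, whose product is a meiotic recombination factor and no proteasome subunit. They are 48 of 23235 genes, and all 48 passed the filter on low values (1 or more in 3 or more of the 12 libraries), as did 15400 genes in all. Psmb8, Psmb9 and Psmb11 were low in LZ libraries, and Psmb8, at 1 or more in 1 of the 6 LZ libraries, passed only through its pachytene libraries. It had to be higher there, so its stage change is given as a description. The set holds 7 constitutive alpha genes, Psma8, 7 constitutive beta genes, 3 immunoproteasome beta genes, the thymus beta gene Psmb11, 6 ATPase and 11 non-ATPase genes of the 19S cap, 3 chaperones of 19S assembly, 4 chaperones of 20S assembly, 4 activators and the inhibitor Psmf1.

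The libraries came from sorted spermatocytes of mice with a C57BL/6 background, in 4 groups of 3: wild type (WT) at leptotene/zygotene (LZ), Rnaseh1 knock-out at LZ, WT at pachytene and Rnaseh1 knock-out at pachytene. The labels do not name the allele, a Cre driver or the age, and do not say that replicates came from separate animals, so the p-values measure the spread between these libraries. RNase H1 removes the RNA strand of RNA:DNA hybrids, and the design asks what its loss does to transcripts at each stage. Rnaseh1 itself was 16.1, 20.5 and 16.8 in WT LZ, 11.02, 18.3 and 14.8 in the LZ libraries labelled knock-out, 52.7, 51.7 and 56.8 in WT pachytene and 77.3, 68.9 and 94.3 in the pachytene libraries labelled knock-out, in spike-in-scaled FPKM. These libraries did not have less Rnaseh1 than WT at pachytene and overlapped with WT at LZ, so they are called KO-labelled throughout; whether the measured part of the transcript is the deleted part is not known from the labels.

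Levels are FPKM (fragments per kilobase of transcript, relative to mapped fragments), which the authors scaled by added ERCC RNA. On that scale the median gene was 1.64 log2 units higher at pachytene than at LZ in WT and 2.29 in KO-labelled libraries, and KO-labelled minus WT it was -0.43 at LZ and 0.37 at pachytene. Changes are therefore given as fitted, and beside them after median-ratio scaling, which centres each library on the typical gene. The KO-labelled LZ libraries resembled each other less than those of the other groups did, with correlations across genes of 0.923 to 0.952 against 0.967 to 0.975 within either pachytene group. The LZ marker list (8 of 9 genes in the table) took 0.345 to 0.486% of the summed FPKM in WT LZ and 0.213 to 0.232% in WT pachytene, and the pachytene list (10 of 10) 0.355 to 0.459% and 0.790 to 0.944%. In KO-labelled libraries the LZ list took 0.388 to 0.552% at LZ and 0.148 to 0.209% at pachytene, and the pachytene list 0.293 to 0.395% and 1.11 to 1.25%. At pachytene both shares thus differed between the genotypes without overlap, that of the pachytene list being higher and that of the LZ list lower in KO-labelled libraries. In spike-in-scaled FPKM the sums of both lists were higher in KO-labelled pachytene libraries. The LZ list summed to 9794 to 10034 FPKM there and to 7064 to 9624 in WT pachytene. Sycp3 made up most of that sum, with means of 7166 and 6444. The means of Sycp3, Hormad1 and Spo11 were higher in KO-labelled pachytene libraries, with overlap between libraries. Those of Dmc1 (6.62 against 19.9), Stra8 (22.1 against 93.4), Rec8, Prss50 and Prdm9 were lower, without overlap except for Prdm9. The pachytene list summed to 53219 to 83773 and to 29862 to 39509. The part of both lists in the genotype differences below was not tested. Markers of round spermatids, a later cell type (8 of 8 genes, none below 1 in all libraries of a group), summed to 14614 to 31725 FPKM in WT LZ, 783 to 5460 in KO-labelled LZ, 37060.3 to 45057 in WT pachytene and 1721 to 9381 in KO-labelled pachytene. As a share of the summed FPKM they took 2.09 to 3.58%, 0.164 to 1.27%, 0.886 to 1.33% and 0.0298 to 0.195% in the same order, so that in WT the FPKM was higher and the share lower at pachytene. They were higher in WT at both stages on either measure, and their part in the stage changes and in every genotype difference below was not tested. In sorted cells measured in bulk, fewer cells of a type and less RNA per cell cannot be told apart.

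Transcripts of the 48 genes together took between 1.09 and 1.32% of the summed FPKM in each of the 4 groups. The share was 1.26% ± 0.0835 in WT LZ (SD, n = 3), 1.32% ± 0.0754 in KO-labelled LZ, 1.18% ± 0.0765 in WT pachytene and 1.09% ± 0.0426 in KO-labelled pachytene. The catalytic core was better represented than its regulators, with the 14 constitutive 20S genes at 0.727% ± 0.0375 of the WT LZ total and the 17 genes of the 19S cap at 0.399% ± 0.0389. The share of the 20S genes was lower at pachytene, at 0.630% ± 0.0401 in WT and 0.528% ± 0.0418 in KO-labelled libraries, whereas that of the 19S genes was 0.384% ± 0.0341 and 0.418% ± 0.0166. These shares do not depend on the spike-in scaling.

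The order of the alpha genes by transcript level differed between LZ and pachytene. Psma8 was the lowest of the 8 alpha genes at LZ and among the highest at pachytene, while Psma7, for which the Psma8 product substitutes in the ring, went from the fourth rank to the last. Psma8 was at 91.8, 149 and 143 FPKM in WT LZ, 103.5, 112.5 and 139 in KO-labelled LZ, 1597, 2229 and 2660.1 in WT pachytene and 3325, 3066 and 3129 in KO-labelled pachytene. Every pachytene library was above every LZ library, and every KO-labelled pachytene library was above every WT pachytene library. Between the genotypes at pachytene, Psma8 was 0.58 log2 units higher in KO-labelled libraries and was not called, beside 0.37 for the median gene. It was 0.23 higher, and again not called, after median-ratio scaling. Its change from LZ to pachytene was 4.07 on the log2 scale (SE 0.24, adjusted p = 3.66e-08 in limma) in WT and 4.74 (SE 0.24, adjusted p = 7.25e-10) in KO-labelled libraries, the largest of the 48 genes in both on this scale. It was still 2.01 and 1.74 after median-ratio scaling, where that of the low gene Psmb8 (2.09 and 2.85) was larger, and it stayed past the threshold under all 3 other scalings that were tried (median-ratio, quantile, and the values before the spike-in step).

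Psma7 was at 325, 307 and 234 FPKM in WT LZ, 121, 213 and 224 in KO-labelled LZ, 522, 727 and 658 in WT pachytene and 376, 430.1 and 409.9 in KO-labelled pachytene. In KO-labelled pachytene libraries it lay below all WT pachytene libraries, the reverse of Psma8. Psma7 rose less than the typical gene: its log2 change with stage was 1.13 (SE 0.24, adjusted p = 7.32e-04 in limma) in WT and 1.17 (SE 0.24) in KO-labelled libraries, which became falls of 0.93 (adjusted p = 0.00676) and 1.83 (adjusted p = 3.12e-05) after median-ratio scaling. The KO-labelled minus WT difference of Psma7 at pachytene was -0.64 (SE 0.24, adjusted p = 0.0527), just short of the threshold, and -0.99 (adjusted p = 0.0176) after median-ratio scaling.

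**Figure D1:**
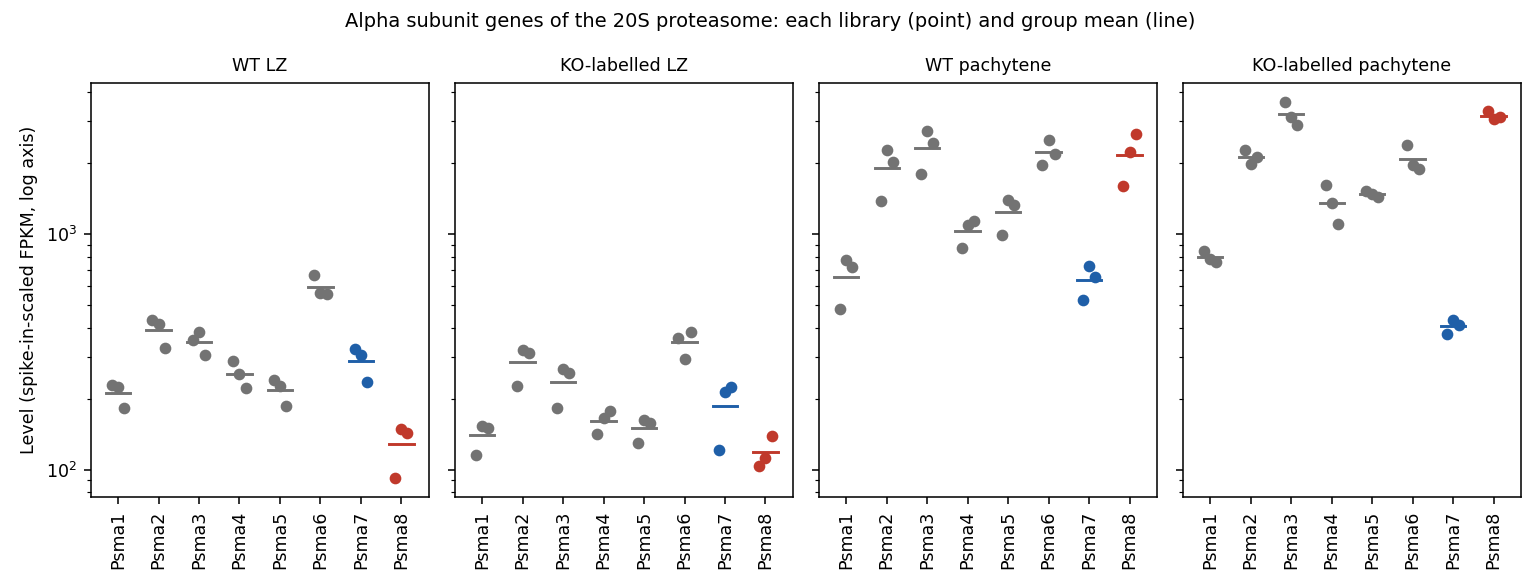
Levels of the 8 alpha subunit genes in spike-in-scaled FPKM on a log axis, with 1 panel per group, 1 point per library and a line at the mean of 3 libraries. Psma8 (red) is the lowest gene in the LZ panels and lies among the highest at pachytene, where Psma7 (blue) is the lowest.

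Within each library, Psma8 made up 22.0%, 32.6% and 37.9% of the summed Psma7 and Psma8 FPKM in WT LZ and 46.1%, 34.6% and 38.4% in KO-labelled LZ. The share was 75.4%, 75.4% and 80.2% in WT pachytene and 89.8%, 87.7% and 88.4% in KO-labelled pachytene, so that the pachytene genotypes did not overlap. The log2 ratio of Psma8 to Psma7 was 2.93 higher at pachytene than at LZ in WT and 3.57 higher in KO-labelled libraries, both at an exact two-sided permutation p of 0.1, which is the lowest value 3 libraries against 3 can reach. With stage permuted within genotype (6 against 6 libraries), the difference was 3.25, a 9.54-fold change, with an exact p of 0.005, also the smallest possible, and 0.06 after adjustment over 48 ratio comparisons. At pachytene the ratio was 2.33-fold higher in KO-labelled than in WT libraries (exact permutation p = 0.1, adjusted 0.178). The coding sequences of both genes in the GENCODE annotation are 74.9% identical over 744 aligned bases, and the longest identical run is 17 bases.

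Among the 7 constitutive alpha genes the log2 stage change in WT ran from 1.13 (Psma7) to 2.72 (Psma3), and all 7 were called, beside 80.9% of all genes. After median-ratio scaling, 1 rose (Psma3) and 1 fell (Psma7), beside 20.2% and 18.1% of all genes. Ranked by level, Psma8 was the third of the 8 alpha genes in WT pachytene, where its range over libraries overlapped with those of Psma3, Psma6 and Psma2, and second in KO-labelled pachytene behind Psma3.

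The constitutive beta genes included the most abundant core transcript at pachytene in WT, Psmb6, which encodes the catalytic beta1 subunit. Psmb6 was at 435, 591 and 434 FPKM in WT LZ, 297, 331 and 346 in KO-labelled LZ, 3075, 3905 and 3888 in WT pachytene and 5148, 5129 and 4359.8 in KO-labelled pachytene. Its log2 stage change of 2.90 (SE 0.19, adjusted p = 4.62e-08 in limma) in WT was the highest of the constitutive core, and 0.84 (adjusted p = 0.00427) after median-ratio scaling. Psmb5, the catalytic beta5 subunit, was at 336, 299.8 and 227 in WT LZ, 145, 148 and 205 in KO-labelled LZ, 1049, 1594 and 1484 in WT pachytene and 2670.5, 2046 and 1841 in KO-labelled pachytene. All 7 constitutive beta genes were called higher at pachytene in both genotypes, beside 80.9% of all genes in WT and 76.8% in KO-labelled libraries. After median-ratio scaling 1 in WT (Psmb6) and 2 in KO-labelled libraries were higher, beside 20.2% and 31.1% of all genes, and 0 and 1 were lower, beside 18.1% and 29.7%.

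Genes of the immunoproteasome, the variant that interferon induces for antigen processing, stayed a small fraction of the core. Psmb8, the inducible counterpart of Psmb5, was at 1.94, 0.0699 and 0.296 FPKM in WT LZ, 0, 0 and 0.261 in KO-labelled LZ, 6.32, 24.4 and 26.6 in WT pachytene and 23.1, 20.8 and 19.7 in KO-labelled pachytene. Psmb9, the counterpart of Psmb6, was at 3.44, 1.30 and 0.400 in WT LZ, 2.06, 0.09997 and 0.442 in KO-labelled LZ, 4.28, 10.6 and 13.8 in WT pachytene and 8.13, 11.1 and 14.0 in KO-labelled pachytene. Both were higher in all pachytene libraries than in all LZ libraries of their genotype. The fitted log2 stage change of Psmb8 was 3.43 in WT and 2.09 after median-ratio scaling, but its level in every library was far under that of Psmb5.

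Blood and macrophage markers as a sum were also higher at pachytene. Their sum over 11 of 12 listed genes was 10.6 to 121 FPKM in WT LZ, 4.51 to 10.9 in KO-labelled LZ, 294 to 1247 in WT pachytene and 699 to 1062 in KO-labelled pachytene. The leukocyte gene Ptprc was at 0.39, 0.01 and 0.15 in WT LZ and at 1.21, 0.86 and 1.97 in WT pachytene, and Cd74, of antigen-presenting cells, was at 61.8 in the WT LZ library with the highest Psmb8 and Psmb9 of its group and at 0.07 and 1.00 in the other WT LZ libraries. Cd3e, a T cell gene of the same list, went the other way. It was at 5.65, 7.05 and 5.04 in WT LZ and at 1.83, 1.04 and 0.654 in WT pachytene. In KO-labelled libraries it was at 4.99, 2.54 and 4.16 at LZ and at 0.397, 0 and 0 at pachytene. Of the 11 listed genes, 7 were below 1 in every KO-labelled LZ library, and C1qa was at 0. Whether such cells contributed the Psmb8 and Psmb9 transcripts was not tested.

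Psmb10, the inducible counterpart of Psmb7, was the most abundant of the 3. It was at 11.2, 12.5 and 9.61 FPKM in WT LZ, 6.24, 7.90 and 6.18 in KO-labelled LZ, 50.4, 66.7 and 74.9 in WT pachytene and 41.8, 48.04 and 39.0 in KO-labelled pachytene. At pachytene every KO-labelled library was below every WT library, with a log2 difference of -0.55 (SE 0.23, adjusted p = 0.0654 in limma) and of -0.88 (adjusted p = 0.0216) after median-ratio scaling. Its log2 ratio to Psmb7 was 0.35 higher at pachytene than at LZ in WT and 0.71 lower in KO-labelled libraries, and 1.09 lower in KO-labelled than in WT pachytene libraries, each with an exact permutation p of 0.1. Psmb11, the thymus-specific beta gene, had means of 1.36 to 6.90 FPKM over the 4 groups.

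The 6 ATPase genes encode the ring that unfolds substrates. All 6 were called higher at pachytene in both genotypes, with log2 changes of 1.46 (Psmc6) to 2.85 (Psmc2) in WT and 1.92 (Psmc6) to 4.47 (Psmc3) in KO-labelled libraries, beside 80.9% and 76.8% of all genes called higher. After median-ratio scaling 1 was higher and 1 lower in WT, beside 20.2% and 18.1% of all genes. In KO-labelled libraries 3 were higher and 1 lower, beside 31.1% and 29.7%. Psmc3 was at 459, 510.5 and 350.3 FPKM in WT LZ, 211, 226 and 233 in KO-labelled LZ, 1901, 2926 and 2948 in WT pachytene and 6456, 5067 and 3786 in KO-labelled pachytene, where it was the most abundant of the 48 transcripts on average. KO-labelled libraries were below all WT libraries at LZ and above all of them at pachytene. Psmc2 was at 175, 241 and 182 in WT LZ, 102, 96.5 and 111 in KO-labelled LZ, 1188, 1402 and 1762 in WT pachytene and 2766, 2443 and 1819 in KO-labelled pachytene, the same order of groups. The stage rise of Psmc2 kept its call under all 3 other scalings in both genotypes, and that of Psmc3 in KO-labelled libraries.

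The 11 non-ATPase genes of the cap, which include the ubiquitin receptor gene Psmd4 and the deubiquitinase gene Psmd14, were all called higher at pachytene in both genotypes, beside the same 80.9% and 76.8%. After median-ratio scaling 3 of the 11 were higher in WT and 4 in KO-labelled libraries, beside 20.2% and 31.1% of all genes. In both genotypes 0 were lower, beside 18.1% and 29.7%. Psmd4 was at 218, 215 and 161 FPKM in WT LZ, 115, 129 and 167 in KO-labelled LZ, 1021, 1585 and 1553 in WT pachytene and 2814, 2468 and 1912 in KO-labelled pachytene. Its stage change was 2.79 (SE 0.24, adjusted p = 2.14e-07 in limma) in WT, the highest of the 11, and 0.72 (adjusted p = 0.00674) after median-ratio scaling. Psmd8 was at 256, 262 and 193 in WT LZ, 135, 154 and 158 in KO-labelled LZ, 1093, 1480.1 and 1670.1 in WT pachytene and 3207, 2588 and 1989 in KO-labelled pachytene. In both genes each KO-labelled pachytene library was above each WT pachytene library. Psmd13 was the lowest of the 11 in WT LZ, at 34.2, 24.8 and 15.4, with 9.37, 17.4 and 16.3 in KO-labelled LZ, 85.5, 86.2 and 138 in WT pachytene and 213, 179 and 152 in KO-labelled pachytene.

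Counted over all members, 48 of 48 genes were called higher at pachytene in WT, beside 80.9% of all genes tested, and 47 of 48 in KO-labelled libraries, beside 76.8%. The exception was Psmd10. The members had a median log2 change of 2.08 (WT) and 3.19 (KO-labelled), against 1.64 and 2.29 for all genes, and 40 of 48 lay above the median of all genes in each genotype. After median-ratio scaling, 11 members were higher and 6 lower in WT, beside 20.2% and 18.1% of all genes, and 16 were higher and 10 lower in KO-labelled libraries, beside 31.1% and 29.7%. Most single rises thus stood only on the spike-in scale. Leaving out Psmb8, which is in the counts although its stage decided whether it was tested, those of Psma8, Psmb6, Psmc2, Psmd4 and Psme4 in WT, and of Psma8, Psmc2, Psmc3, Psmd4, Psmd8 and Psme4 in KO-labelled libraries, were called under all 3 other scalings as well. Markers of somatic cells also differed between the stages. The Leydig sum was 3.74 to 17.1 FPKM in WT LZ and 2292 to 8618 in WT pachytene, and 3.38 to 89.0 and 1240.4 to 5343 in KO-labelled libraries. The peritubular and endothelial sum was 0.565 to 28.2 and 502 to 669 in WT, and 0.870 to 18.7 and 156 to 199 in KO-labelled libraries. Their part in the stage changes was not tested.

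**Figure D2:**
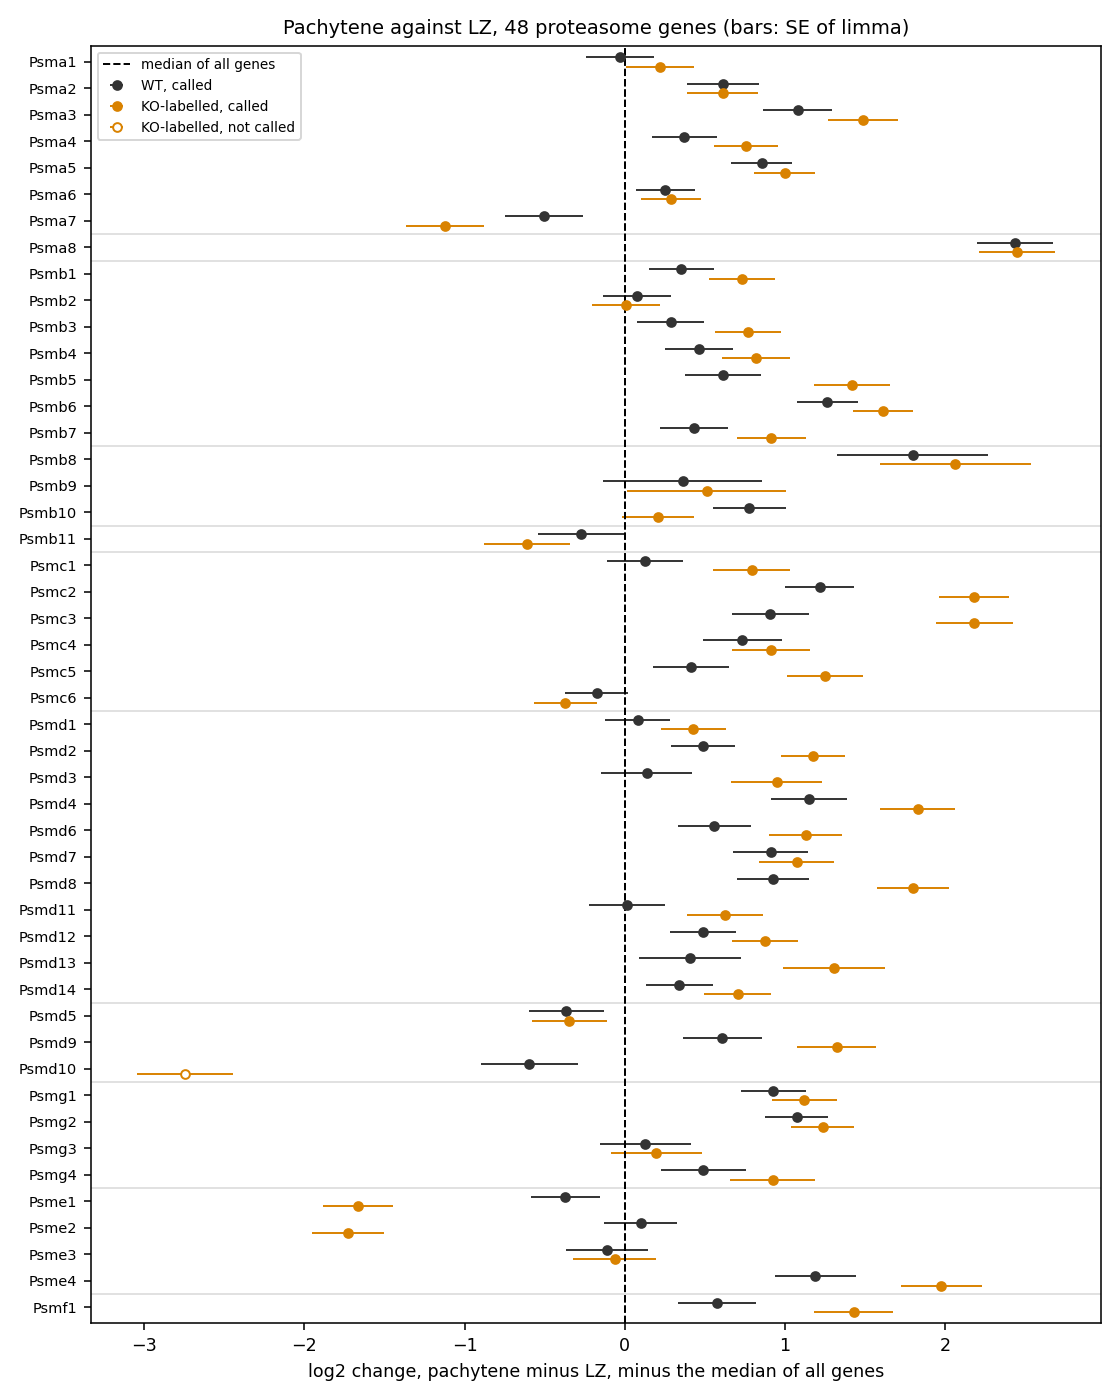
Log2 change from LZ to pachytene of each of the 48 genes minus the median change of all genes (dashed line at 0), in WT (black) and KO-labelled libraries (orange), with the SE of limma as bars and open points for genes not called on the spike-in scale. Psma8 is farthest to the right in both genotypes, and Psmd10, Psme2, Psme1 and Psma7 of the KO-labelled libraries are farthest to the left.

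The activators did not move together. Psme1 and Psme2 encode PA28alpha and PA28beta, which form 1 ring and are induced by interferon together with the immunoproteasome, Psme3 encodes the nuclear PA28gamma, and Psme4 encodes PA200, known for acetylated histone degradation in spermatogenic cells. Psme1 was at 95.5, 64.9 and 55.9 FPKM in WT LZ, 49.9, 56.3 and 44.0 in KO-labelled LZ, 153, 189 and 171 in WT pachytene and 78.5, 73.5 and 81.0 in KO-labelled pachytene. Psme2 was at 139, 140.3 and 99.8 in WT LZ, 82.1, 106 and 84.7 in KO-labelled LZ, 373, 528 and 372 in WT pachytene and 109.7, 143 and 155 in KO-labelled pachytene. For both genes all KO-labelled pachytene libraries lay below all WT pachytene libraries, while the LZ groups overlapped.

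At pachytene Psme1 fell by 1.13 on the log2 scale (SE 0.22, adjusted p = 0.00571 in limma) and Psme2 fell by 1.63 (SE 0.23, adjusted p = 0.00116) in KO-labelled against WT libraries. The calls of both were kept in 6 of 6 fits that left out 1 library each and under all 3 other scalings, where median-ratio scaling gave -1.46 and -1.97. At LZ the differences were -0.49 (adjusted p = 0.136) and -0.46 (adjusted p = 0.168). The difference between the genotype effects of the stages was -1.17 for Psme2 (SE 0.32, adjusted p = 0.0143) and -0.64 for Psme1 (SE 0.31, adjusted p = 0.114), which became -1.55 (adjusted p = 0.0198) after median-ratio scaling.

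Relative to the constitutive core (the mean log2 level of the 31 constitutive 20S and 19S genes), Psme1 was 1.58 log2 units lower in KO-labelled than in WT pachytene libraries and Psme2 2.09 lower, each with an exact permutation p of 0.1 and without overlap. From LZ to pachytene the ratio of Psme1 to the core changed by -0.85 in WT and by -2.58 in KO-labelled libraries, and that of Psme2 by -0.38 and by -2.64. The ratio of Psme3 changed by -0.59 in WT, with overlap, and by -0.98 in KO-labelled libraries. Psme4 went the other way, with 0.71 in WT and 1.06 in KO-labelled libraries. Over both genotypes, stage permuted within genotype gave an exact p of 0.005 for Psme1, Psme2 and Psme4 and of 0.01 for Psme3, which adjusted to 0.06 and 0.0686. None of the 48 ratio comparisons had an adjusted p under 0.05, and 9 of them had an unadjusted one.

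**Figure D3:**
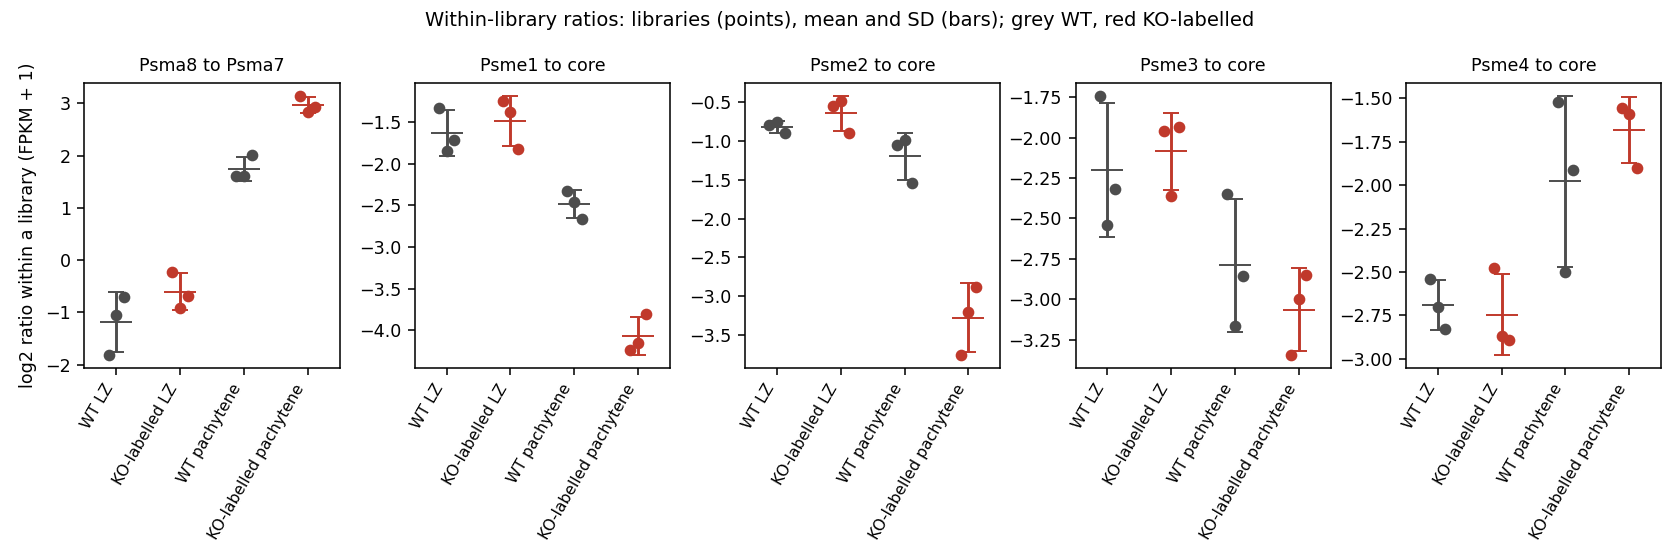
Log2 ratios within each library of Psma8 to Psma7 and of the activators Psme1 to Psme4 to the constitutive core, with 1 point per library and the mean and SD of 3 libraries per group. The ratios of Psme1 and Psme2 to the core are lowest in KO-labelled pachytene libraries, where that of Psma8 to Psma7 is highest.

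Psme4 was at 40.6, 35.7 and 25.5 FPKM in WT LZ, 20.8, 19.5 and 20.5 in KO-labelled LZ, 269, 184 and 287 in WT pachytene and 508, 439.5 and 305.5 in KO-labelled pachytene. It lay below all WT libraries at LZ and above all of them at pachytene in KO-labelled libraries. Its stage change was 2.83 (SE 0.25, adjusted p = 3.02e-07 in limma) in WT and 4.27 (SE 0.25) in KO-labelled libraries, and 0.79 (adjusted p = 0.00246) and 1.31 (adjusted p = 3.12e-05) after median-ratio scaling. Psme3 was at 71.5, 39.9 and 36.6 in WT LZ, 30.2, 28.1 and 40.6 in KO-labelled LZ, 151, 115 and 149 in WT pachytene and 147, 165 and 158 in KO-labelled pachytene, with overlap between the genotypes at both stages.

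Psme1 and Psme2 are near neighbours on chromosome 14, and their upstream sequences are shown because these 2 genes fell together in KO-labelled pachytene libraries. Each is the 250 bases before the annotated start in RefSeq (build GRCm38.p6), 5′ to 3′ on the gene's strand, with matches to the searched motifs in capitals. Neither holds a match.
Psme1, chr14:55578244-55578493, plus strand: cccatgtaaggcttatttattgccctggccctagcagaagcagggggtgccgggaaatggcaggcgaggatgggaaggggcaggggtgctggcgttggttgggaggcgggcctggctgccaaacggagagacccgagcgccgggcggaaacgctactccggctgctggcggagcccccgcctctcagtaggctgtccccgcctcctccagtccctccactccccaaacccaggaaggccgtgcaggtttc
Psme2, chr14:55591102-55591351, minus strand: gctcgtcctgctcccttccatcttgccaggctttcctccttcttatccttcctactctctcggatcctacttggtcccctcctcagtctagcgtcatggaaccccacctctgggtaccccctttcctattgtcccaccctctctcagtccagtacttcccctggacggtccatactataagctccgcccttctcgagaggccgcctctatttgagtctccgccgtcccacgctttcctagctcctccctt

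On either side of the pair, the KO-labelled minus WT log2 differences at pachytene were 0.74 for Dcaf11 (adjusted p = 0.039 in limma, called), -0.21 for Fitm1 and -0.16 for Rnf31 (neither called). Irf9, a component of the interferon response, was at -0.98 (adjusted p = 0.0509), Rec8, the meiotic cohesin gene, fell by 1.83 (adjusted p = 0.00647) and Ipo4 rose by 0.97 (adjusted p = 0.0144). After median-ratio scaling Dcaf11 was not called (0.39, adjusted p = 0.127 in limma), while Rec8 (-1.76) and Ipo4 (0.61) were. Neighbouring genes thus moved in both directions. Among 11 tested genes of the interferon and antigen presentation list, 0 fell and 3 rose at pachytene in KO-labelled libraries (among them Ifit3 by 1.12 and Tapbp by 0.79), beside 14.3% and 24.6% of all genes, and 0 of the 11 were called after median-ratio scaling (1 higher and 0 lower at an unadjusted p under 0.05 in limma).

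The chaperones of 19S assembly split in the same comparison. Psmd10 encodes gankyrin, which escorts an ATPase pair during assembly, and is the only X-linked gene of the 48. It was at 38.5, 32.0 and 31.8 FPKM in WT LZ, 14.1, 25.4 and 22.7 in KO-labelled LZ, 50.9, 102 and 68.6 in WT pachytene and 17.98, 10.7 and 15.7 in KO-labelled pachytene. The KO-labelled libraries were below all WT libraries at both stages. Psmd10 fell by 2.22 (SE 0.30, adjusted p = 0.00105 in limma) at pachytene, the lowest log2 change of the members, and the difference at LZ was -0.73 (adjusted p = 0.111). The difference between the genotype effects was -1.49 (SE 0.43, adjusted p = 0.0169), called in 12 of 12 fits without 1 library and under all 3 other scalings. From LZ to pachytene Psmd10 rose by 1.04 (SE 0.30, adjusted p = 0.00584) in WT, and fell by 0.98 after median-ratio scaling, and in KO-labelled libraries it changed by -0.45 (adjusted p = 0.182) and by -3.25 (adjusted p = 5.68e-06) after that scaling.

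The X chromosome is silenced at pachytene. Over the 612 X-linked genes tested, the median log2 difference of KO-labelled against WT libraries was -1.14 at pachytene, beside 0.37 for all genes. Of the 612, 363 were called lower and 5 higher, beside 14.3% and 24.6% of all genes. At LZ the X-linked median was -0.35, beside -0.43 for all genes. Psmd10 at -2.22 and -0.73 was below both X-linked medians. From LZ to pachytene in WT the X-linked median was 0.71, beside 1.64 for all genes, and -0.84 after median-ratio scaling. The part of X linkage in the Psmd10 values was not tested. Psmd9, an autosomal chaperone of 19S assembly, rose by 0.75 at pachytene in KO-labelled libraries, on the spike-in scale only, and Psmd5 was not called.

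For comparison of their upstream sequences, Psmd10 and Psmd4 are shown, the first as the member that fell most in KO-labelled pachytene libraries and the second as the non-ATPase gene with the highest stage change in WT. Capitals mark the NF-Y box CCAAT on either strand and, in Psmd4, the paired interferon-response site GAAANNGAA, which starts 79 bases before the start on the opposite strand.
Psmd10, chrX:140956712-140956961, minus strand: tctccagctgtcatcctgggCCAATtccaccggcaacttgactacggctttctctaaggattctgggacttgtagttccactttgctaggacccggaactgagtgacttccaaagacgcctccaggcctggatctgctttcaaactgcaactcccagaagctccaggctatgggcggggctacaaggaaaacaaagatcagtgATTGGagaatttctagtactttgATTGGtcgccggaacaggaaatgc
Psmd4, chr3:95042615-95042864, minus strand: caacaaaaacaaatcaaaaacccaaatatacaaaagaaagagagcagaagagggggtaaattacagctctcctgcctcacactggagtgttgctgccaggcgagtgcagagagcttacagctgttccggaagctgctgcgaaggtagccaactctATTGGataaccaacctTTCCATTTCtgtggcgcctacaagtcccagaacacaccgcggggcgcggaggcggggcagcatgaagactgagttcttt

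Psmd10 has 3 NF-Y boxes in this stretch, which begin 230, 47 and 24 bases before the start. Of the 40 members with a RefSeq promoter window of 300 bases (250 before and 50 after the start), 14 hold CCAAT on either strand, which is 35.0%, against 41.1% of 27025 genes. The NRF1 palindrome was in 7 of 40 (17.5%, against 5.19% of all). NRF1 here is nuclear respiratory factor 1 (gene Nrf1), not the product of Nfe2l1. TAACNG, a core of MYB sites, was in 7 (17.5%, 25.9%), AACNGTT, a longer form of it, in 3 (7.5%, 5.01%) and the cyclic AMP element TGACGTCA in 0 (2.03%). TGACTCAGC, an antioxidant response element, was in 0 of 40 (0.503% of all) and its looser form TGANTCAGC, which contains it, in 1, Psmb5 (2.5%, 1.37%). GAAANNGAA was in 7 (17.5%, 9.76%), among them Psme1 with a match 10 bases after the start, and the palindrome TTCNNNGAA of STAT factors in 3 (7.5%, 9.55%), among them Psmb8. The last pair of motifs was chosen after results were seen, and a match describes letters, not a bound site.

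Transcripts of the 20S assembly chaperones Psmg1 to Psmg4 were all called higher at pachytene in both genotypes, beside 80.9% and 76.8% of all genes. With median-ratio scaling, 2 of the 4 in WT and 1 in KO-labelled libraries were higher, beside 20.2% and 31.1% of all genes. In both genotypes 0 were lower, beside 18.1% and 29.7%. The median of the 4 log2 changes was 2.35 (WT) and 3.32 (KO-labelled), and Psmg1 rose by 0.60 in KO-labelled pachytene libraries on the spike-in scale only. Psmf1, which encodes the inhibitor PI31, was at 61.1, 47.6 and 47.0 FPKM in WT LZ, 27.3, 15.97 and 22.1 in KO-labelled LZ, 241, 206 and 286 in WT pachytene and 353, 310.4 and 229.5 in KO-labelled pachytene. At LZ its KO-labelled libraries were all below WT, with a log2 difference of -1.23 (SE 0.24, adjusted p = 0.0166 in limma), the lowest of the members on this scale, and of -0.67 (adjusted p = 0.0952) after median-ratio scaling.

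At LZ, 12 members were called lower and 0 higher in KO-labelled libraries, beside 12.9% and 0.136% of all genes. After Psmf1 the lowest were Psmb3 at -0.98 (SE 0.21, adjusted p = 0.0184 in limma) and Psmc3 at -0.96 (SE 0.24, adjusted p = 0.027). Psmb3, a structural beta gene, was at 519.6, 456 and 380.2 FPKM in WT LZ and 205, 229 and 250.01 in KO-labelled LZ. In 32 of 48 members all KO-labelled LZ libraries were below all WT libraries on the spike-in scale, a larger share than the 36.5% of all genes. The count of called members was 0 after median-ratio scaling (0.39% higher and 0.688% lower of all genes), 0 when the LZ groups were fitted alone in limma (1 and 29 members had an unadjusted p under 0.05 in these fits, all lower), and between 0 and 20 when 1 library was left out, with 20 without WT LZ replicate 3, 5 without KO-labelled LZ replicate 1 and 0 without any of the other 4. The median of the members, -0.57, lay 0.14 below that of all genes and was -0.02 after median-ratio scaling.

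At pachytene, 12 members were called higher in KO-labelled libraries, beside 24.6% of all genes, and 3 lower, beside 14.3%. The 3 lower were Psmd10, Psme2 and Psme1. The highest were Psmc3 at 0.97 (SE 0.24, adjusted p = 0.0147 in limma), Psmd8 at 0.87 (SE 0.23, adjusted p = 0.0166) and Psmd4 at 0.80 (SE 0.24, adjusted p = 0.0237). Of the 12, 8 encode parts of the 19S cap. None of the 12 was called under another scaling: 0 members were higher and 5 lower after median-ratio scaling (6 and 6 at an unadjusted p under 0.05 in limma), beside 3.28% and 9.68% of all genes, and the 5 were Psmd10, Psme2, Psme1, Psma7 and Psmb10. Without KO-labelled pachytene replicate 1 or 2, or without WT pachytene replicate 1, 0 of the members were called higher and 3 lower, and without WT pachytene replicate 2 the counts were 5 and 3.

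Marker sums of several other cell types were also lower in KO-labelled pachytene libraries. Beside the round spermatid sum given above, the Sertoli sum (7 of 8 genes in the table, Amh below 1 throughout) was 1055 to 1380.4 FPKM in WT and 604 to 678 in KO-labelled pachytene, the peritubular and endothelial sum (6 of 6) 502 to 669 and 156 to 199, and the spermatogonial sum (6 of 6) 358 to 436 and 38.7 to 100.3. Dcn and Acta2 made up most of the peritubular and endothelial sum, and Uchl1 most of the spermatogonial sum. Pecam1, an endothelial gene, was low but higher in every KO-labelled than in every WT pachytene library (means of 1.36 and 0.42). Gata4, Sox9, Cldn11, Kit and Gfra1 overlapped between the genotypes, and the mean of Gfra1 was not lower (3.08 in KO-labelled and 2.84 in WT pachytene). The Leydig sum (6 of 6) overlapped, at 2292 to 8618 and 1240.4 to 5343. Of its genes, Star, Hsd3b1 and Lhcgr were higher in every KO-labelled than in every WT pachytene library, and Insl3, Cyp17a1 and Cyp11a1 overlapped. The part of these cell types in the lower Psme1, Psme2, Psmd10, Psma7 and Psmb10 values was not tested.

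**Figure D4:**
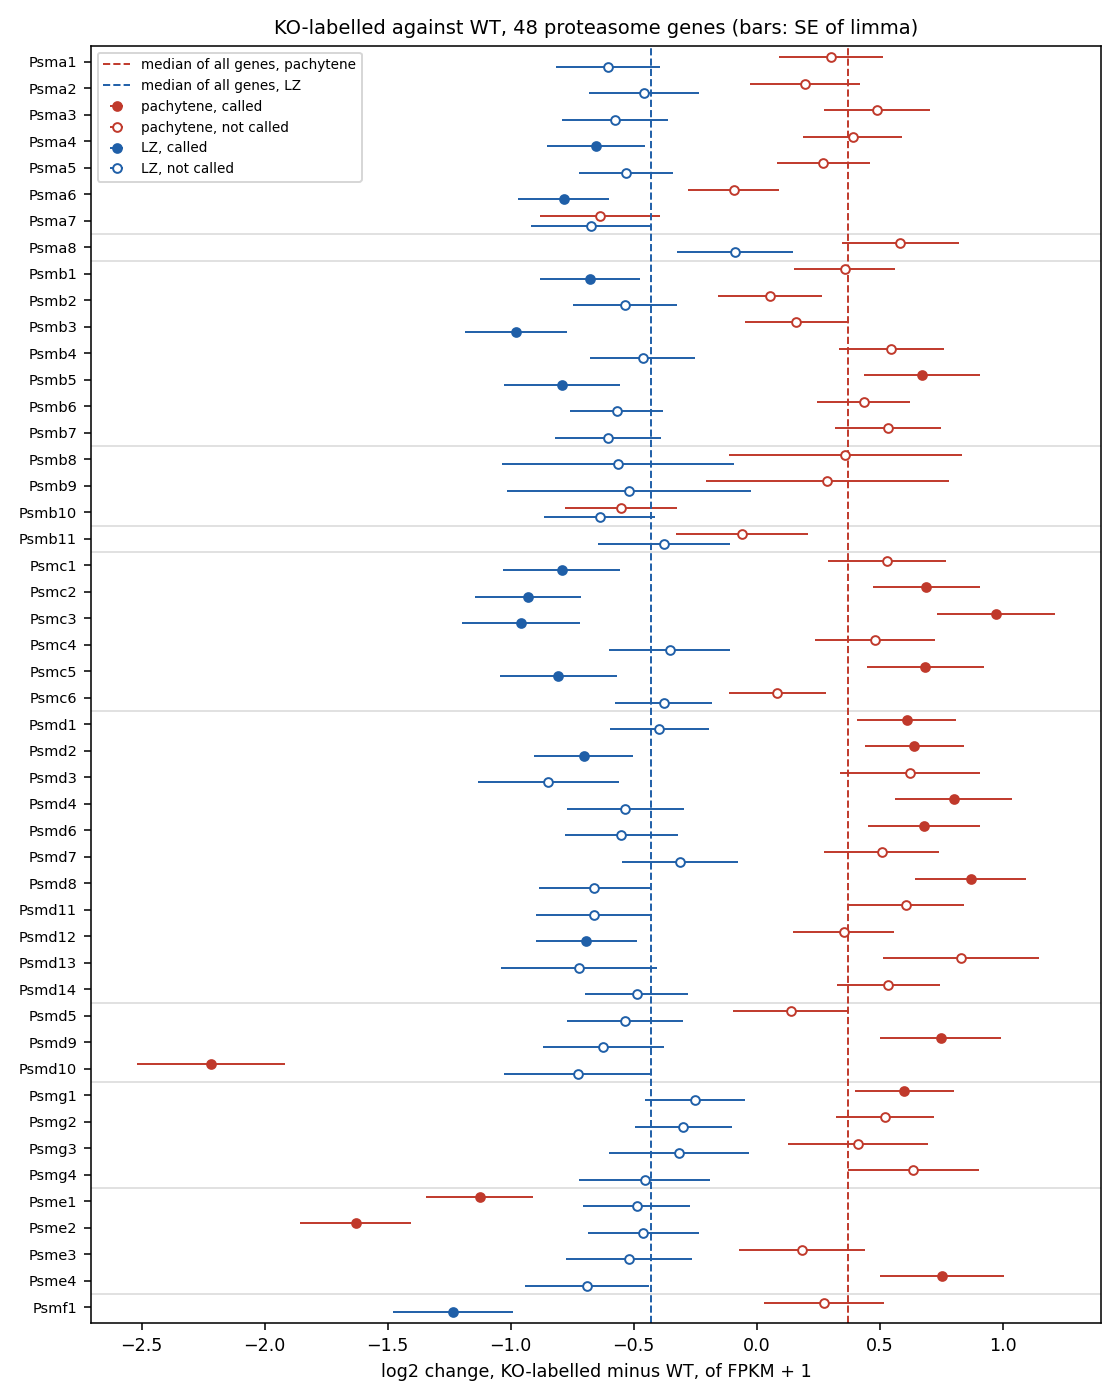
Log2 difference of KO-labelled minus WT libraries for each of the 48 genes at pachytene (red) and LZ (blue), with the SE of limma as bars, filled points for called genes and dashed lines at the medians of all genes. Psmd10, Psme2 and Psme1 at pachytene are the 3 red filled points left of 0.

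The genotype difference itself differed between the stages for 32 members on the spike-in scale, 30 in the direction of a higher effect at pachytene (beside 34.9% of all genes) and 2 in the other (3.49%). The highest were Psmc3 at 1.93 (SE 0.34, adjusted p = 0.00493 in limma), Psmc2 at 1.62 (SE 0.31, adjusted p = 0.00509) and Psmd13 at 1.55 (SE 0.45, adjusted p = 0.0178), and the 2 negative ones were Psmd10 and Psme2. After median-ratio scaling 0 were positive and 3 negative (Psmd10, Psme2 and Psme1), with 6 and 5 at an unadjusted p under 0.05, beside 2.29% and 4.39% of all genes.

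Genes that serve the complex were read from a list of 37 tested genes of assembly, ubiquitin supply, shuttling and transcriptional control. At pachytene against LZ in WT, 30 rose and 0 fell, beside 80.9% and 0.487% of all genes. With median-ratio scaling, 5 rose and 12 fell, beside 20.2% and 18.1%. Among the changes farthest from the median of all genes were those of Ubqln4, a ubiquilin that carries ubiquitinated proteins (3.06), Ubb, a polyubiquitin gene (3.05), Uchl5, a deubiquitinase of the 19S cap (2.94), Tpp2, a peptidase that acts after the proteasome (2.61), and, on the low side, Txnl1, a thioredoxin bound to the 19S cap (0.77). These 5 were called, and Txnl1 fell by 1.27 after median-ratio scaling while the other 4 still rose. In KO-labelled against WT libraries, 0 of the 37 rose and 4 fell at LZ, beside 0.136% and 12.9% of all genes. At pachytene 12 rose and 6 fell, beside 24.6% and 14.3%, and 5 and 6 after median-ratio scaling, beside 3.28% and 9.68%.

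Of the 6 that fell at pachytene, 5 are named, chosen after their values were seen. They were Ubqlnl (3.13 on the log2 scale), Ddi1 (1.97), Ubqln2 (1.22), Uba1 (1.16) and Nfe2l2 (1.12), all given as sizes of a fall, and all 5 fell after median-ratio scaling too. Uba1, the main ubiquitin-activating enzyme, and Ubqln2 are X-linked. Nfe2l2 encodes NRF2, an activator of proteasome genes under oxidative stress, and was at 18.8, 19.4 and 22.5 FPKM in WT pachytene and 7.35, 7.13 and 12.6 in KO-labelled pachytene, without overlap. Nfe2l1, whose product drives the rebound of proteasome genes after inhibition, was not called in that comparison (0.49, adjusted p = 0.176 in limma).

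Several members overlap other genes in the table: Psma3, Psma4, Psmb7, Psmb9, Psmc3, Psmd1, Psmd13 and Psmd9 have a partner on the opposite strand, and Psma2 and Psmb5 have one on the same strand. Whether the counting used strand is not given in the sources used here, so reads of such pairs may not be told apart.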

How the data were processed

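Polyadenylated RNA of FACS-sorted cells was converted to amplified cDNA and read from both ends, per the labels' protocols. TopHat2 2.1.1, Cufflinks 2.2.1 and the build mm9 are named in the submitters' processing notes. The deposited table holds FPKM per gene, which the authors scaled by ERCC spike-in RNA, per the file headers; the annotation and the formula are not given in the sources used here. Of its value columns, 4 carry no name and were not used. It gives no read counts, so depth is unknown and no counting intervals are given.

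A gene needed 1 or more in 3 or more libraries, which 15400 met. A model of 4 group means was fitted to log2(FPKM + 1) over all 12 libraries in limma 3.58.1 (R 4.3.3), with variances that follow the level. Two-sided p-values were adjusted by Benjamini-Hochberg over all genes kept, and genes under 0.05 were called. Because of the pseudocount of 1, fitted changes understate those of low genes. Ratios within libraries were compared by exact permutation tests, adjusted over 48 comparisons. The fit was tested on simulated data.

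Members, gene lists and the rule for named genes were chosen with earlier results of these data known. The rule named fixed genes of each role, and the 3 highest and 3 lowest called members of each genotype comparison and of the interaction (for stage, relative to the median of all genes). Alternatives were median-ratio and quantile scaling, values before the spike-in scaling (its factors were recovered from the number of digits), a pseudocount of 0.1 or 5, no filter or a minimum of 5, only the groups compared, replicate number as a block, and leaving out each library. Chromosomes, neighbours and promoters come from RefSeq GRCm38.p6 and coding sequences from the GENCODE annotation of GRCm38, a later build than mm9. Protein sequences were not used here. Some genes of the lists are counted but not reported by name here.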

Additional observations from a re-analysis of the deposited data

Results flagged for a closer look

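For 7 named members the KO-labelled minus WT difference differed between pachytene and LZ by the interaction test of limma (Benjamini-Hochberg adjusted over all genes). The difference of the log2 effects was 1.93 for Psmc3 and 1.62 for Psmc2, ATPases of the 19S cap, 1.55 for Psmd13, 1.46 for Psmb5 and 1.44 for Psme4. Each of these 5 was lower at LZ and higher at pachytene on average in KO-labelled libraries, and the median of all genes was 0.72. After median-ratio scaling they were 0.98, 0.68, 0.64, 0.52 and 0.52, none of them called (adjusted p between 0.0538 and 0.248 in limma). The other two had the opposite sign: -1.49 for Psmd10 and -1.17 for Psme2. These were called under all 3 other scalings, where median-ratio scaling gave -2.28 and -2.10. The round spermatid markers, lower in KO-labelled libraries at both stages, were measured beside them and their part was not tested.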

How the results depend on the processing

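The scaling between libraries decided most calls. Called members under median-ratio scaling, under quantile normalisation and with the spike-in scaling undone were 17, 23 and 18 for stage in WT, 26, 31 and 30 for stage in KO-labelled libraries, 0, 0 and 0 for genotype at LZ, 5, 7 and 7 for genotype at pachytene, and 3, 5 and 5 for the interaction. Median-ratio scaling called 20.2% of all genes higher and 18.1% lower for stage in WT, and 31.1% and 29.7% in KO-labelled libraries. The shares were 0.39% and 0.688% for genotype at LZ, 3.28% and 9.68% at pachytene, and 2.29% and 4.39% for the interaction. Shares of all genes under the other settings of this section are not given here, so those counts describe the members alone. In the same order of the 3 scalings, higher and lower stage calls of members were 11 and 6, 7 and 16, and 6 and 12 in WT. In KO-labelled libraries they were 16 and 10, 7 and 24, and 7 and 23. All genotype calls at pachytene were lower. In that order of scalings, log2 stage changes that were positive on the spike-in scale became, in WT, -0.93, -1.20 and -1.17 for Psma7, -0.98, -1.03 and -1.20 for Psmd10, -0.78, -0.93 and -1.02 for Psme1, -0.32, -0.56 and -0.56 for Psme2 and -0.51, -0.61 and -0.75 for Psme3. Psmb5 became -0.11 under quantile normalisation and -0.0590 with the spike-in scaling undone. In KO-labelled libraries they became -1.83, -2.35 and -2.35 for Psma7, -0.33, -0.10 and -0.79 for Psmb10, -2.33, -2.53 and -2.81 for Psme1, -2.42, -2.76 and -2.91 for Psme2 and -0.74, -1.02 and -1.25 for Psme3. The interaction of Psma7 became -1.15 under quantile normalisation and -1.18 with the spike-in scaling undone, and that of Psmb10 then -0.98. For genotype at LZ, 5 members were called with a pseudocount of 5, 4 with no filter, and 0 when only the LZ groups were fitted.

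Leaving out 1 library gave 48 called members for stage in WT, 45 to 47 in KO-labelled libraries, 0 to 20 for genotype at LZ, 3 to 18 at pachytene and 26 to 35 for the interaction. The ratio of Psma8 to Psma7 over both genotypes ran from 3.10 to 3.37, and its adjusted permutation p of 0.06 became 0.048 at a pseudocount of 0.1 (3.26), after median-ratio scaling (3.25) and without WT pachytene replicate 1 (3.29). Its unadjusted exact permutation p was already the smallest possible. Such a move of the adjusted value thus rests on the p-values of the other ratios and says nothing about this one. With a pseudocount of 5, the stage change of the Psmb8 to Psmb5 ratio was -0.81 instead of 0.91, and with 0.1 that of Psmb9 to Psmb6 was 0.00751 instead of -1.002. Same-numbered replicates did not all deviate together (correlations of -0.167 to 0.259 across genes), so the numbers were not taken as pairs. With the replicate number as a block, 48, 47, 5, 12 and 30 members were called for stage in WT, stage in KO-labelled libraries, genotype at LZ, genotype at pachytene and the interaction. Apart from the scaling of libraries, whose recovered factors rest on the digits of the table, the limits are 3 libraries per group and an unknown depth.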
